A study of Saccharomyces cerevisiae with 2 samples.

Results

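Chromatin accessibility was examined at the 10 genes that carry cell wall integrity signalling in the budding yeast Saccharomyces cerevisiae, out of 6002 nuclear protein-coding genes in the R64 annotation. The genes were taken by name, and all 10 were found, WSC1 under its other symbol SLG1. The measure was the DNase I hypersensitive site (DHS), a stretch where the nuclease DNase I cuts chromatin readily, listed for 1 library of each of 2 strains. The G170D strain carries a temperature-sensitive allele of the chaperone Hsp90, named G170D in the labels, and the WT strain has no such change. Both have the laboratory background BY4741 and grew in rich YPD medium at 37 °C for 6 h to an OD of 0.65 to 0.7. Cultures started at an OD of 0.37 in G170D and 0.25 in WT, so that the extent of growth and the strain cannot be told apart. The labels do not say which of the Hsp90 genes, HSC82 or HSP82, carries the allele or how it is expressed.

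The cell wall integrity pathway senses damage or stretch of the yeast cell surface and adjusts wall synthesis. The membrane sensors Wsc1 and Mid2 act on the exchange factors Rom1 and Rom2, which load the small GTPase Rho1 with GTP. Rho1 activates protein kinase C (Pkc1), which starts a kinase cascade of Bck1, the related pair Mkk1 and Mkk2, and the MAP kinase Slt2, also called Mpk1. Growth at raised temperature is a known activator of the pathway, and Slt2 is a known client of Hsp90.

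The lists held 2875 DHS (1807 kb) and 33585 footprints in G170D, and 3155 DHS (2183 kb) and 45019 footprints in WT. Footprints are short stretches within open chromatin that the nuclease cut less. The midpoint of every footprint lay in a DHS of its own strain, so a window without DHS cannot hold a footprint midpoint, and the number of reads behind the lists is unknown. BY4741 is known to lack LEU2, but DHS covered all 1095 bp of the LEU2 coding region in G170D and all 1095 bp in WT, against the labelled background. Of other marker genes, URA3 and HIS3 held 0 bp in their coding regions in both strains, as did 50.1% of all genes. MET17 held 67 bp in G170D and 90 bp in WT. What the DHS over LEU2 means for the results below was not tested. With 1 library per strain there is no replicate error and no test between the strains, and each value describes these 2 libraries. Intervals given in brackets are exact ones at the 95% level. They reflect counting error alone and take footprints as independent.

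Each gene was read in 3 windows, the 500 bp upstream of the coding start, the coding region, and the 500 bp after the coding end. Over the 3 windows together, G170D had less DHS length than WT at 7 of the 10 genes, against 44.2% of all genes, and more at 2, against 21.1%. The remaining gene, PKC1, had none in either strain, as did 33.6% of all genes. Among genes whose DHS length differed, the share with less in G170D was 77.8% of 9 members and 67.7% of all 3919 such genes. The direction thus followed that of the whole lists. The windows of the 10 genes held 5424 bp of DHS in G170D, 16.5% of their length, and 6951 bp in WT, 21.2% of it. This made a ratio, G170D to WT, of 0.78, and the same ratio over all genes was 0.836. ROM1, 1 of the 2 genes with more in G170D, held 2394 bp of the G170D total and 1791 bp of the WT total. The pooled ratio thus rested in large part on 1 gene that went against the majority.

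Upstream windows held 1398 bp of DHS in G170D and 1815 bp in WT over the 10 genes. The mean per gene was 140 bp in G170D and 182 bp in WT, and over all genes 89.6 bp in G170D and 98.5 bp in WT. The median difference in this window was 0 bp for the members and for all genes. A DHS touched the window in both strains at MID2, MKK2 and SLT2 (all genes: 24.6%), in G170D only at ROM1 (4.98%), in WT only at RHO1 (7.05%), and in neither strain at the 5 others (63.4%). All of the upstream difference in DHS length came from 4 genes that did not move alike. MID2, RHO1 and SLT2 had less in G170D, as had 18.7% of all genes, and ROM1 had more, as had 11.2%.

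The coding regions held 2313 bp of DHS in G170D, 10.1% of their length, and 3189 bp in WT, 14.0% of it. Over all genes the shares were 9.94% in G170D and 12.8% in WT. A DHS touched the coding region in both strains at 7 members (all genes: 35.2%), in G170D only at BCK1 (5.0%), in WT only at MKK1 (9.68%) and in neither at PKC1 (50.1%). The downstream windows held 1713 bp in G170D and 1947 bp in WT. They were touched in both strains at WSC1, MID2, ROM1 and RHO1 (34.5%), in G170D only at BCK1 (4.73%), in WT only at SLT2 (8.68%), and in neither at the 4 others (52.1%). Coding regions are longer than the flanking windows, from 630 to 4437 bp, and so more easily touched. Those of the members, 22833 bp over 10 genes, are also longer on average than those of all genes, 8859925 bp over 6002.

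**Figure D1:**
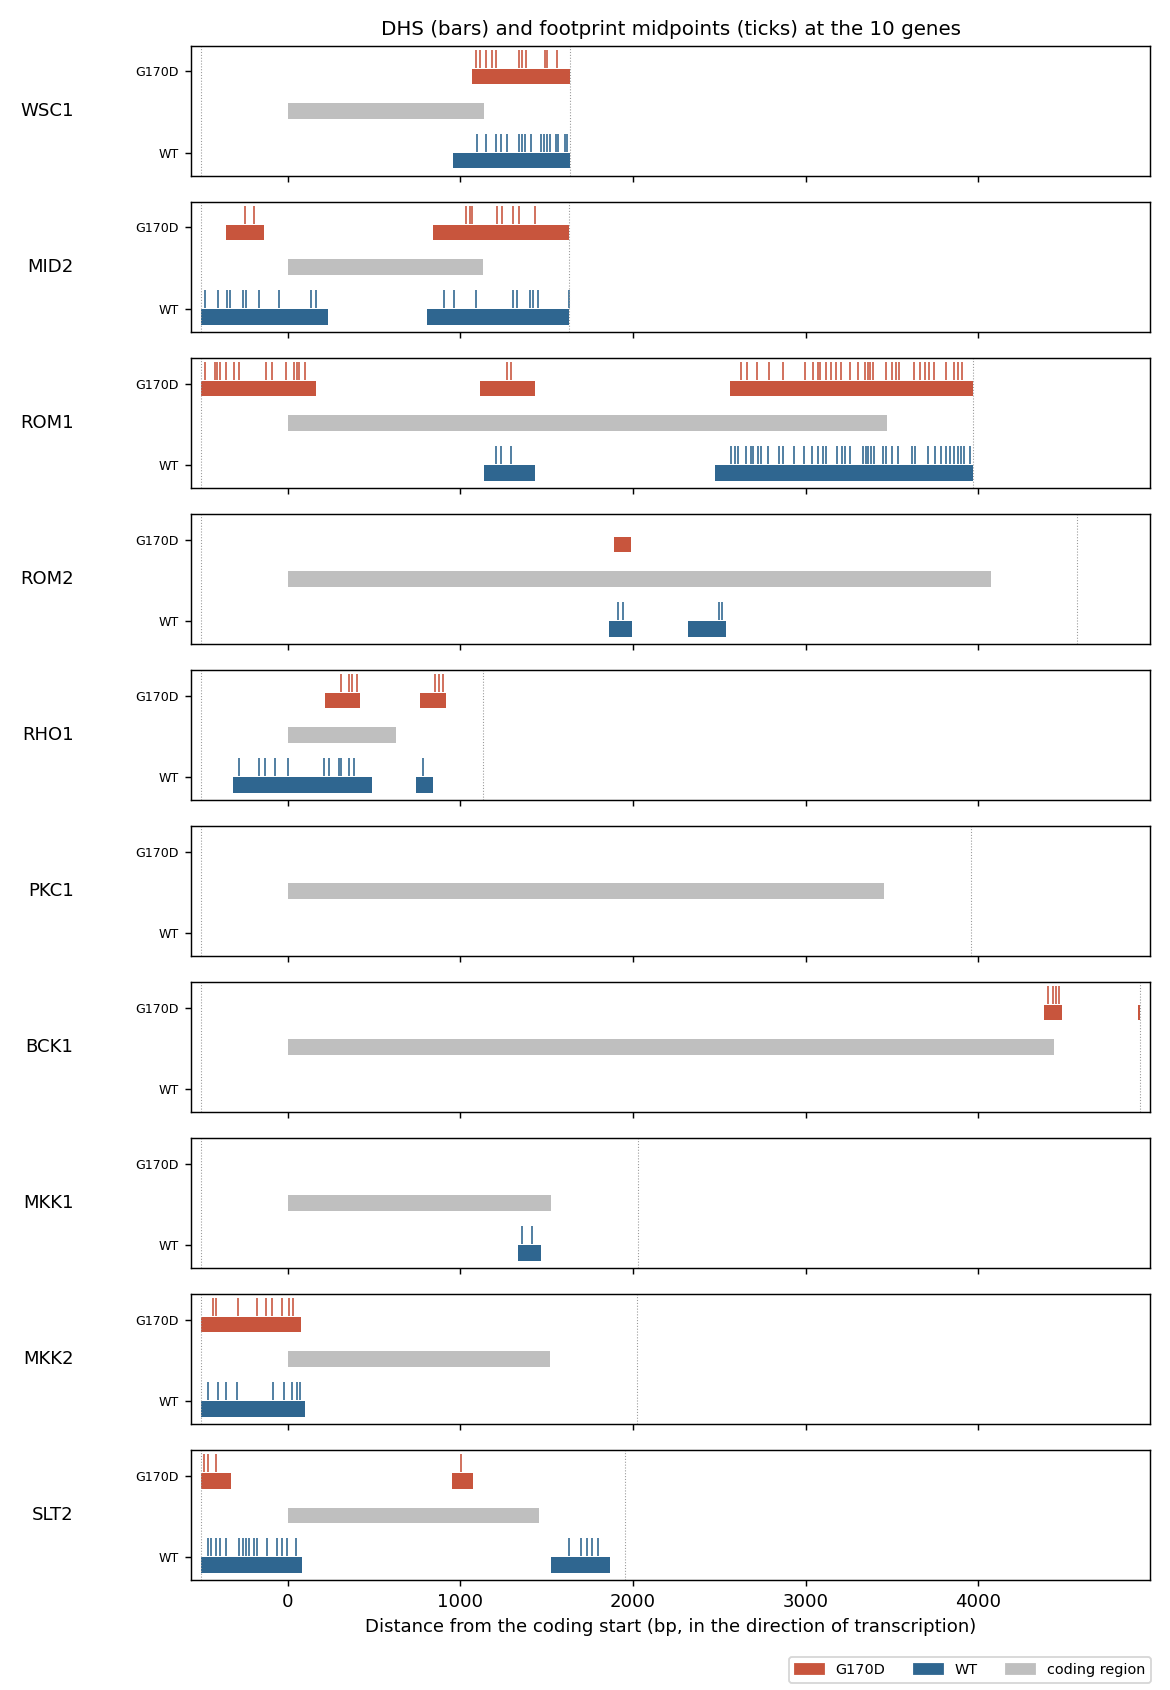
DHS and footprints at the 10 genes, ordered from sensors to the MAP kinase. The x axis gives the distance from the coding start in bp in the direction of transcription, grey bars are coding regions, coloured bars are DHS of G170D (upper) and WT (lower), ticks are footprint midpoints, and dotted lines mark the outer window limits. DHS covered the coding start of ROM1 and MKK2 in G170D, and of MID2, RHO1, MKK2 and SLT2 in WT.

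Of the sensors, WSC1 (SLG1, YOR008C, XV:341278-342414, reverse strand, sacCer3) encodes a sensor known for its role at raised temperature. Its upstream window held 0 bp of DHS in either strain, and the nearest DHS edge upstream lay 11329 bp away in G170D and 5659 bp away in WT. The open chromatin of WSC1 lay at its other end. A DHS of 1299 bp in G170D (XV:340051-341349) and 1434 bp in WT (XV:340024-341457) covered the tRNA gene YNCO0012C, the whole downstream window and the end of the coding region. It reached 72 bp into the coding region in G170D and 180 bp in WT. The downstream window held 9 footprints in G170D and 16 in WT, and 8 of those in G170D and 9 of those in WT overlapped a footprint of the other strain. The strongest in G170D, 25 bp wide at XV:341195-341219, had a score of -7.50 and ranked at place 3175 of 33585. Its WT counterpart, 15 bp wide, had a score of -5.32. Scores of footprints are the authors' own, negative throughout, and the most negative is strongest.

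MID2 (YLR332W, XII:790676-791806, forward strand) encodes the other sensor, which is known for its part in mating and wall stress. Its upstream window held 224 bp of DHS in G170D and 500 bp in WT, with 2 footprints in G170D and 8 in WT. In G170D the DHS was a narrow one of 224 bp that ran from -359 to -136, counting the first coding base as 1 and the base before it as -1. In WT it was 741 bp wide, ran from -505 to 236 and so covered the coding start. By the authors' score it ranked at place 2088 of 2875 in G170D and 1039 of 3155 in WT. Of all genes, 146 (2.43%) had a difference in upstream DHS length as negative as the -276 bp of MID2. This share counts all genes, of which 63.4% had no upstream DHS in either strain and so could not differ. Those with less in G170D numbered 1121. The same holds for the shares of upstream differences given for the genes below. The strongest WT footprint there, 26 bp wide and centred at -259.5 with a score of -6.89, overlapped a 23-bp footprint of G170D with a score of -4.10. That G170D footprint overlapped a second WT one, centred at -239.

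The coding region of MID2 held 291 bp of DHS in G170D and 559 bp in WT, with 3 footprints in G170D and 5 in WT. Over 371 bp it overlaps the reading frame JIP3 on the opposite strand, and a DHS belongs to both strands alike. At the end of MID2 both strains had a broad DHS, 5954 bp wide in G170D and 6070 bp in WT, that began in the coding region. It ran on over 2 tRNA genes, 3 snoRNA genes, the ribosomal protein gene RPS25B and the start of the nuclear pore gene NUP2. This domain was nearly the same in both strains, with edges that differed by 32 and 84 bp. It filled the 500 bp after the coding end in both, with 5 footprints in G170D and 6 in WT. The narrower upstream DHS in G170D was thus next to a broad domain of similar extent.

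Rom1 and Rom2 are the related exchange factors that activate Rho1, and their genes differed in opposite directions. At ROM1 (YGR070W, VII:627806-631273, forward strand) the upstream window held 500 bp of DHS in G170D and 0 bp in WT, with 10 footprints in G170D and 0 in WT. The DHS was 956 bp wide in G170D (VII:627014-627969), ran from -792 to 164 and held 19 footprints. It spanned the stretch between ROM1 and ART5, a gene transcribed in the opposite direction, and reached into both coding regions. In WT the nearest DHS upstream of ROM1 ended 4122 bp away. Of the 508 DHS of G170D that overlapped no WT DHS, it ranked at place 9 by width, where the median was 186.5 bp, and at place 26 by score. Of all genes, 17 (0.283%) had an upstream difference as large as the 500 bp of ROM1, the most the window allows, and 25 (0.417%) had a footprint difference of 10 or more. The strongest of its upstream footprints, 18 bp wide and centred at -93.5, had a score of -5.77. Just inside the coding region, in the same DHS, footprints centred at 36 and 97.5 had scores of -6.77 and -6.38.

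The remaining DHS of ROM1 were alike in the strains. A narrow DHS in the middle of the coding region ran from 1115 to 1434 in G170D and from 1134 to 1432 in WT. A broad one began near the end of the coding region and continued over ENV11 into UPF3, 4230 bp wide in G170D and 4232 bp in WT. The coding region held 1394 bp of DHS in G170D and 1291 bp in WT, with 26 footprints in G170D and 31 in WT. Of the 26 G170D footprints 17 overlapped a WT footprint, and of the 31 in WT 17 overlapped one of G170D. In the downstream window 10 of 12 footprints in G170D and 10 of 14 in WT did so. The strain difference at ROM1 therefore lay at the DHS around its coding start, while its other DHS were found in both strains at nearly the same edges.

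ROM2 (YLR371W, XII:862714-866784, forward strand) had no DHS in the 500 bp on either side in either strain. Its coding region of 4071 bp held 100 bp of DHS in G170D and 356 bp in WT. The 100 bp of G170D lay inside a WT DHS of 135 bp, and the other 221 bp of WT, from 2319 to 2539, had no counterpart. No footprint was listed there in G170D, and 4 were listed in WT with scores from -4.46 to -4.11, close to the weakest of the list. The overlapping DHS were weak by score, at place 2634 of 2875 in G170D and 2483 of 3155 in WT. The WT DHS of 221 bp ranked at place 1965 of 3155. Among the 892 WT DHS without a counterpart it ranked at place 180 by score.

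RHO1 (YPR165W, XVI:875368-875997, forward strand) encodes the GTPase at the centre of the pathway, which also regulates the glucan synthase and actin. Its upstream window held 0 bp of DHS and 0 footprints in G170D, against 315 bp and 4 footprints in WT. The WT DHS was 804 bp wide and ran from -315 to 489, covering the coding start and most of the short coding region. In G170D the DHS that overlapped it was 202 bp wide, ran from 215 to 416, and lay wholly inside the coding region. The edge on the upstream side thus lay 529 bp further in, and the edge on the downstream side 73 bp further in. Of all genes, 98 (1.63%) had an upstream difference as negative as the -315 bp of RHO1. The strongest of the 4 WT footprints, 11 bp wide and centred at -134, had a score of -6.23, within the strongest 20.3% of the WT list.

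The coding region of RHO1 held 202 bp of DHS and 4 footprints in G170D, and 489 bp and 7 footprints in WT. A pair of footprints recurred there, centred at 309.5 and 352.5 in G170D and at 310 and 353 in WT. Their scores were -4.70 and -4.25 in G170D, and -5.90 and -5.41 in WT. After the coding end the order was the other way round, with 150 bp and 3 footprints in G170D against 103 bp and 1 footprint in WT, in DHS that shared 77 bp. The G170D footprint at XVI:876204-876231, 28 bp wide, had a score of -7.0, stronger than any other footprint of RHO1 in either strain. That DHS lies almost wholly between RHO1 and MRP2, a mitochondrial ribosomal protein gene transcribed towards it.

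Protein kinase C is encoded by the essential gene PKC1 (YBL105C, II:14241-17696, reverse strand). No DHS and no footprint was listed in any of its windows in G170D or in WT. The gene lay in a stretch without DHS of 10109 bp in G170D and 11156 bp in WT. Of the 2859 gaps between DHS in G170D, with a median of 2082 bp, 7.0% were as long or longer. Of the 3139 gaps in WT, with a median of 1718 bp, 3.92% were. These are shares of gaps and not of genes. Many gaps are too short to hold PKC1 with its windows, and a long gap can hold several genes. Of all genes, 33.6% had no DHS in any of the 3 windows in either strain. Lists without read counts do not show how accessible this stretch was below the authors' threshold.

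The kinases below Pkc1 had little listed DHS, apart from MKK2 and SLT2. BCK1 (YJL095W, X:247255-251691, forward strand) encodes the MAP kinase kinase kinase. In G170D a DHS of 106 bp crossed its coding end, from 4381 to 4486, and held 4 footprints, and a further DHS inside the neighbouring gene KHA1 touched the downstream window. The DHS at the coding end ranked at place 2722 of 2875. In WT the gene lay in a stretch of 28967 bp without DHS. BCK1 was thus the other gene, beside ROM1, with more DHS length in G170D, with 120 bp against 0 bp in WT over the 3 windows.

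Mkk1 and Mkk2 are related MAP kinase kinases that can stand in for each other. MKK1 (YOR231W, XV:772601-774127, forward strand) had no DHS in its windows in G170D, and in WT a single one of 131 bp from 1335 to 1465 in the coding region, at place 2757 of 3155. It held 2 footprints, of which that at XV:774008-774016 had a score of -6.58. MKK2 (YPL140C, XVI:287514-289034, reverse strand) had its upstream window covered over all 500 bp in G170D and in WT. Its DHS was 818 bp wide in G170D (XVI:288957-289774) and 1151 bp in WT (XVI:288935-290085), and it covered the coding start in both. The edge on the side of the next gene, UME1, lay 311 bp further in for G170D, and the edge in MKK2 22 bp further in. Among the 3 members with an upstream DHS in both strains, MKK2 alone had its window covered equally, and fully, in both.

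The upstream window of MKK2 held 7 footprints in G170D and 6 in WT, and 4 in each strain overlapped one of the other. The strongest in G170D, 28 bp wide and centred at -35.5, had a score of -5.92, and the WT footprint it overlapped, 12 bp wide and centred at -21.5, had -5.74. In WT the strongest was 28 bp wide and centred at -405.5 with a score of -6.36, and the G170D footprint it overlapped, centred at -413.5, had -5.41. With the WT list limited to its 33585 strongest footprints, the number in G170D, the window held 7 in G170D and 3 in WT.

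SLT2 (YHR030C, VIII:168890-170344, reverse strand) encodes the MAP kinase at the end of the cascade. Its upstream window held 174 bp of DHS and 3 footprints in G170D, against 500 bp and 15 footprints in WT. The WT DHS was 739 bp wide and ran from -656 to 83, covering the coding start. In G170D it was 299 bp wide and ran from -625 to -327. The far edges differed by 31 bp and the edges towards SLT2 by 409 bp. The remaining G170D DHS lay partly over the end of RRM3, the DNA helicase gene upstream on the same strand, and partly between RRM3 and SLT2. RRM3 takes up 46 bp of the upstream window, of which this DHS covered 174 bp. The 326 bp next to the coding start of SLT2 were not covered. Within 300 bp of the coding start SLT2 had 0 bp in G170D and 300 bp in WT, and so counted there as covered in WT only. By score this DHS ranked higher in G170D, at place 1141 of 2875, than in WT, at place 1715 of 3155.

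The difference of -12 upstream footprints at SLT2 was matched or exceeded by 7 genes in all (0.117%), SLT2 included. This share rests on the full lists, of which that of WT is longer. Limiting the WT list to its 33585 strongest footprints, the number in G170D, left 3 in G170D and 11 in WT in this window. Among the stronger 50% of each list there were 1 in G170D and 4 in WT. The direction thus stayed, with a smaller difference, and its rarity among all genes was not tested there. The difference of -326 bp in DHS length was matched or exceeded by 88 (1.47%). Of the 15 WT footprints, 5 lay where G170D also had DHS, and 2 of these overlapped a G170D footprint. The recurring pair lay at VIII:170754-170767 in G170D and VIII:170757-170767 in WT, and at VIII:170798-170813 in G170D and VIII:170798-170810 in WT. The scores of the footprint nearer to SLT2 were -4.11 in G170D and -5.98 in WT, and those of the other, at the coding end of RRM3, were -6.48 in G170D and -5.25 in WT. Which of the pair was stronger thus differed between the strains. The other 10 WT footprints lay from -2.5 to -284, where G170D had no DHS, with scores from -5.50 to -4.07. The WT footprint centred at -2.5, 22 bp wide, spanned the coding start itself.

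Beyond the coding start, the coding region of SLT2 held 119 bp of DHS in G170D and 83 bp in WT, in different places. The G170D DHS ran from 953 to 1071 at place 2782 of 2875 and held a 24-bp footprint with a score of -7.31. The 83 bp of WT were the start of the coding region, reached by the upstream DHS. The downstream window held 0 bp in G170D and 344 bp with 5 footprints in WT, in a DHS that lay between SLT2 and YHI9 and reached into YHI9. Of all genes, 112 (1.87%) had a downstream difference as negative as this one. SLT2 was thus less covered in G170D on both flanks.

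**Figure D2:**
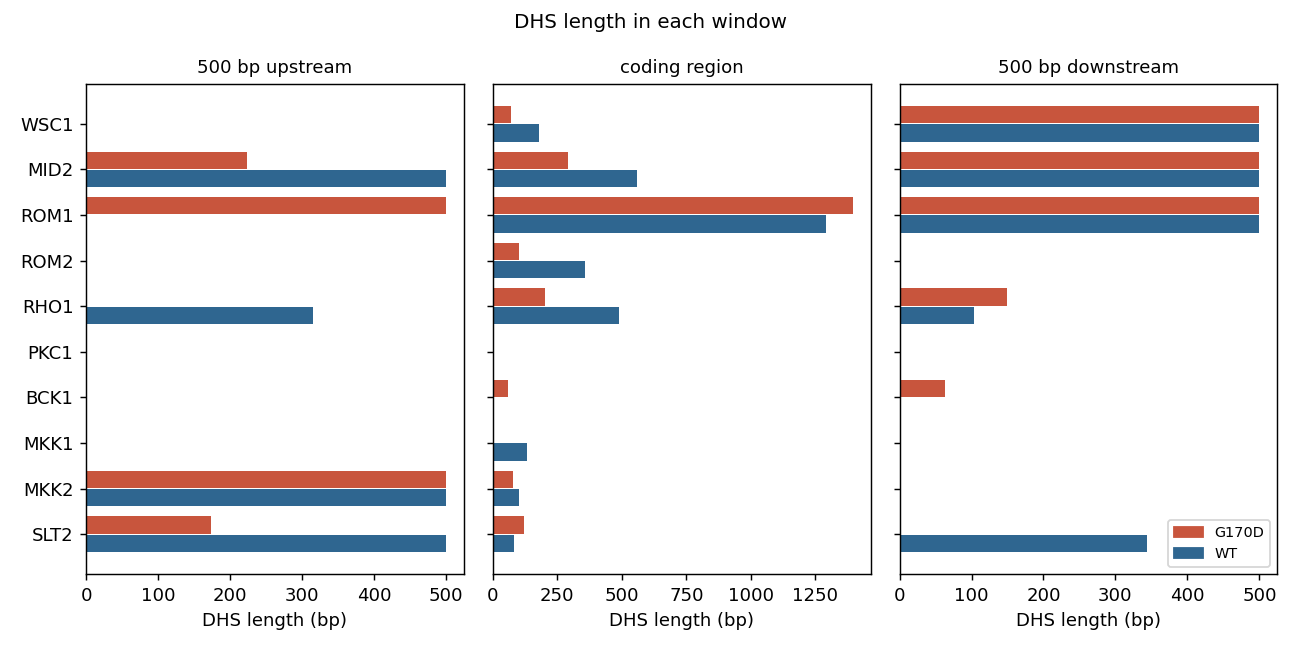
DHS length in bp (x axis) in the upstream window, the coding region and the downstream window of each gene, with G170D above WT. The bars of the upstream panel show 500 bp at ROM1 in G170D alone, 315 bp at RHO1 in WT alone, and shorter bars in G170D at MID2 and SLT2.

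**Figure D3:**
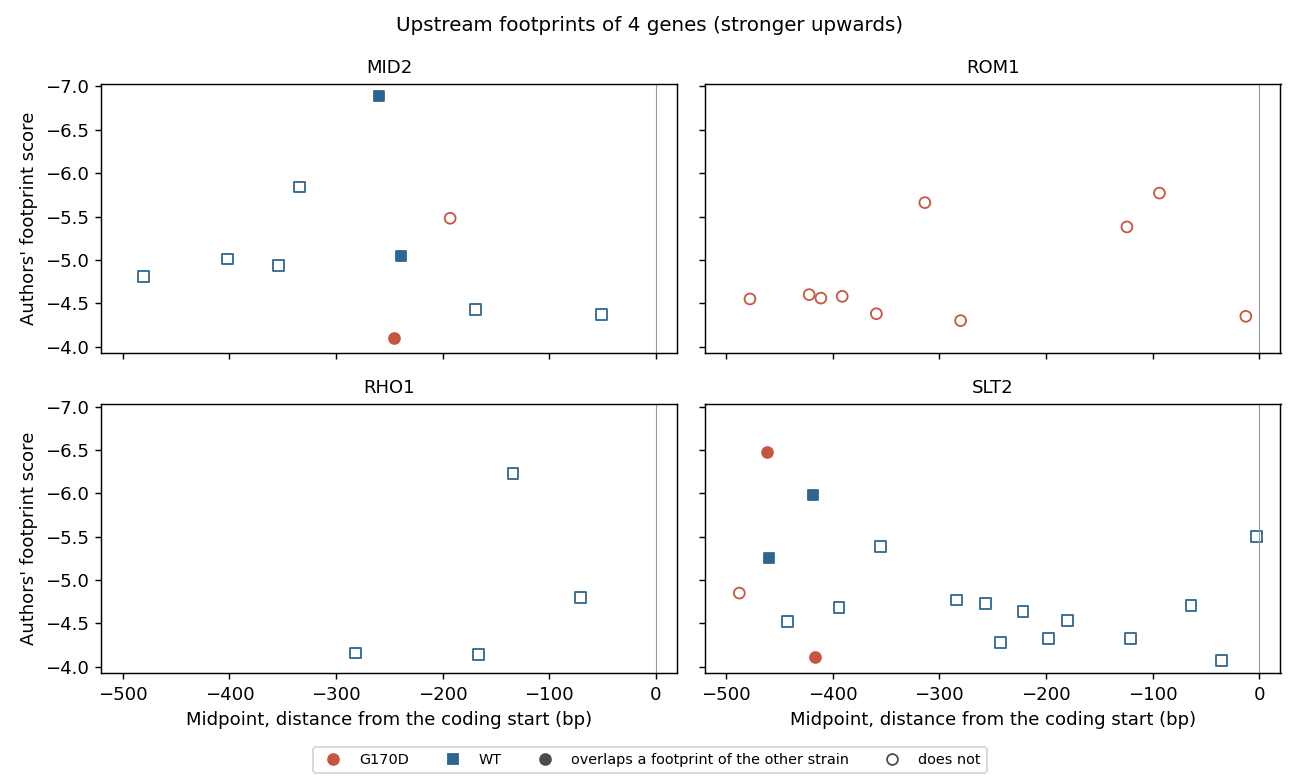
Upstream footprints of the 4 genes whose upstream DHS length differed, by midpoint (x axis, distance from the coding start in bp) and authors' score (y axis, stronger upwards). Circles are G170D, squares are WT, and filled symbols overlap a footprint of the other strain. ROM1 has 10 circles and no square, RHO1 has 4 squares and no circle, and SLT2 has 3 circles beside 15 squares.

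The edges of the DHS were then compared as a group. The windows of the 10 genes touched 14 DHS in G170D and 13 in WT. Of these, 4 in G170D and 3 in WT overlapped no DHS of the other strain, while over the whole lists the shares were 17.7% in G170D and 28.3% in WT. There were 10 pairs in which 1 DHS of G170D overlapped 1 of WT. In 8 of these the DHS was narrower in G170D, and over all 1855 such pairs of the genome in 71.4% (69.3 to 73.4). Both edges lay inside those of WT in 7 of the 10 pairs and in 48.7% of all pairs. The median difference in width was -125.5 bp among the members and -72 bp over all pairs. The 3 widest edge shifts lay at the coding start, with 529 bp at RHO1, 409 bp at SLT2 and 371 bp at MID2. In each of these the WT DHS covered the coding start and the G170D DHS did not. At RHO1 the part that remained in G170D lay downstream of the coding start, and at SLT2 and MID2 it lay upstream.

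Footprints in the 3 windows numbered 93 in G170D and 129 in WT over the 10 genes. The ratio was 0.721 (0.546 to 0.949), against 0.747 (0.737 to 0.757) over all genes. The totals over all genes, 38743 in G170D and 51866 in WT, count a footprint again where windows of neighbouring genes overlap. The interval over all genes is therefore too narrow. Upstream the 10 genes had 22 in G170D and 33 in WT. In coding regions they had 40 in G170D and 54 in WT, and downstream 31 in G170D and 42 in WT. ROM1 alone supplied 48 of the 93 in G170D and 45 of the 129 in WT, so the pooled ratio leaned on this gene. G170D had fewer at 6 of the 10 genes, against 43.9% of all genes. Among genes whose number differed, the share with fewer in G170D was 75.0% of 8 members and 72.9% of all such genes. Within the 4427 bp of these windows that paired DHS of both strains covered, G170D had 71 footprints and WT 98, a ratio of 0.724 (0.526 to 0.993). Over the full shared stretches of the 10 pairs, 13422 bp that run on beyond the windows, G170D had 246 and WT 304, a ratio of 0.809 (0.681 to 0.96). In the shared stretches of all 1855 pairs the ratio was 0.835 (0.82 to 0.849). With the WT list limited to its 33585 strongest footprints, the upstream windows held 22 in each strain, the coding regions 40 in G170D and 39 in WT, and the downstream windows 31 in G170D and 27 in WT. Over all genes the ratios were then 1.09 upstream, 0.997 in coding regions and 1.01 downstream. The downstream order also turned within 300 bp of the coding end, with 23 in G170D and 22 in WT, and among the stronger 50% of each list, with 19 in G170D and 14 in WT. Among the stronger 50% G170D still had fewer upstream, with 10 against 11 in WT, and in coding regions, with 18 against 24. Shortening the WT list can only lower WT counts, and why G170D had fewer footprints was not tested.

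A smaller share of footprints recurred among the members than over the whole lists. Of the 93 footprints in G170D 51.6% (41.0 to 62.1) overlapped a WT footprint, against 64.6% over the list, and of the 129 in WT 38.8% (30.3 to 47.7) overlapped one of G170D, against 48.8%. Footprints outside the DHS of the other strain numbered 22 of 93 in G170D and 31 of 129 in WT among the members, and made up 11.1% in G170D and 20.3% in WT over the lists. None of these overlapped a footprint of the other strain at the members, and over the lists 0.0805% did in G170D and 0.0547% in WT. This follows nearly by construction, since every footprint midpoint lies in a DHS of its own strain. Of the footprints lying in DHS of both strains, 48 of 71 in G170D (67.6%, 55.5 to 78.2) overlapped a WT footprint and 50 of 98 in WT (51.0%, 40.7 to 61.3) overlapped one of G170D. Over the whole lists the shares were 72.7% in G170D and 61.2% in WT. Both of these values lay inside the members' intervals, that of WT close to the upper limit. The pooled shares leaned on ROM1, which supplied 48 of the 93 footprints in G170D and 45 of the 129 in WT. Recurrence varied between windows. Downstream, 8 of 9 G170D footprints recurred in WT at WSC1 and 10 of 12 at ROM1, but 2 of 5 at MID2 and 0 of 3 at RHO1. The median width was 13 bp in G170D and 11 bp in WT among the members, and 12 bp in G170D and 11 bp in WT over the whole lists.

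**Figure D4:**
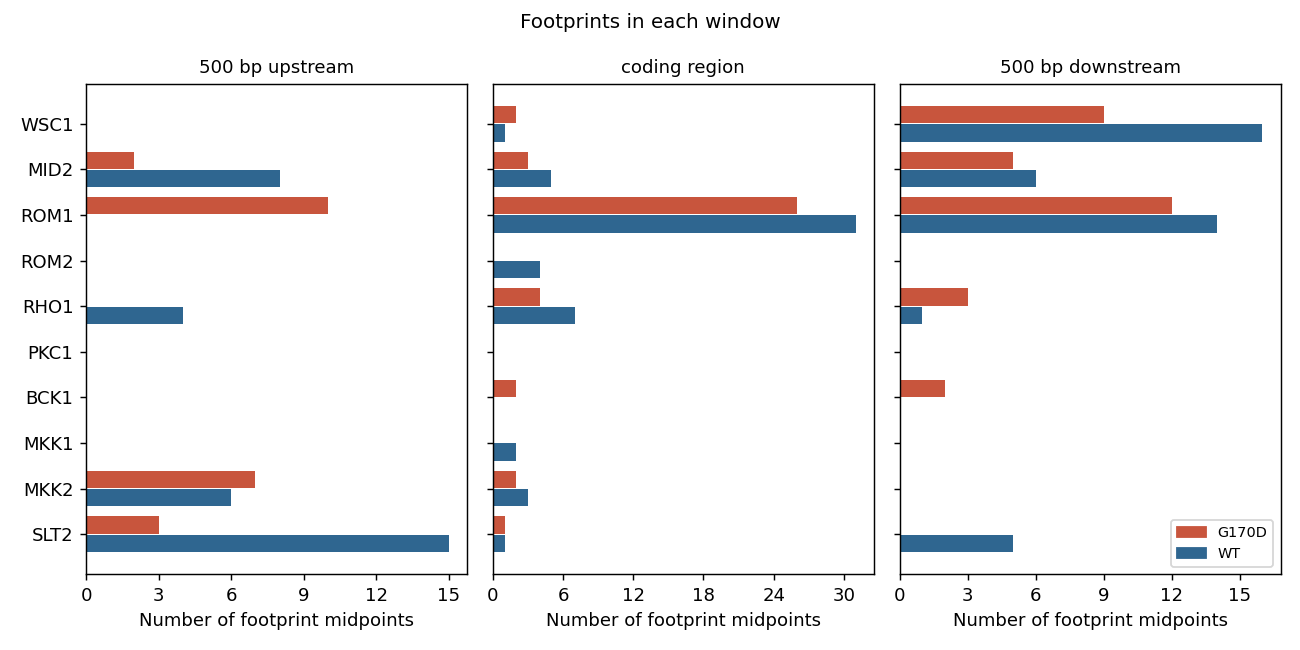
Number of footprint midpoints (x axis) in the upstream window, the coding region and the downstream window of each gene, with G170D above WT. The widest gaps are at SLT2 upstream (3 in G170D and 15 in WT), ROM1 upstream (10 in G170D and 0 in WT) and WSC1 downstream (9 in G170D and 16 in WT).

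**Figure D5:**
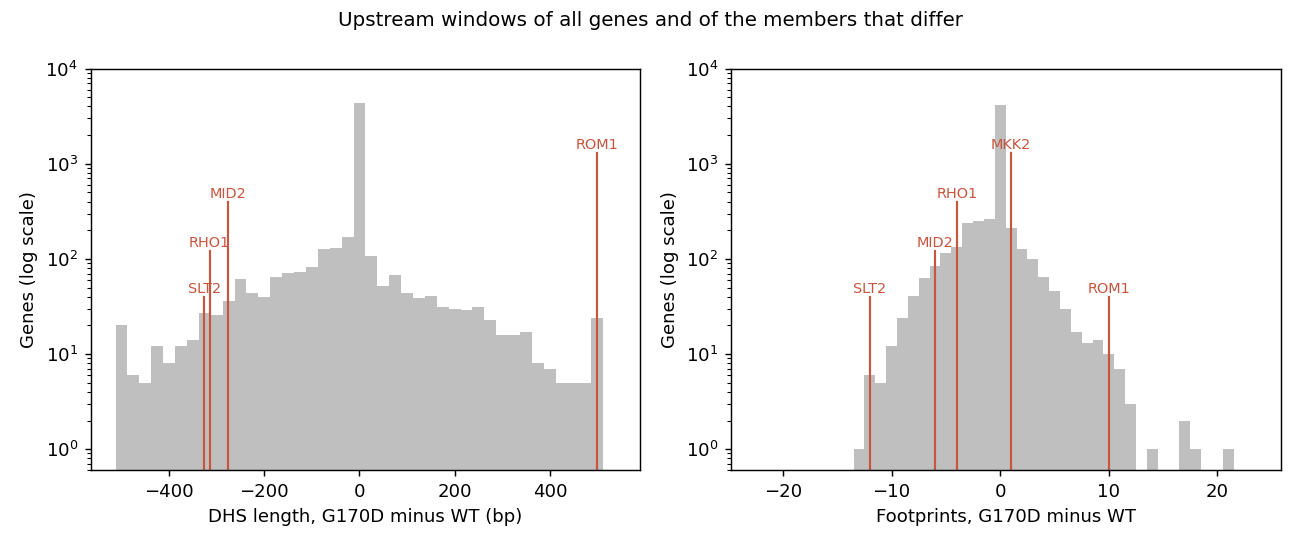
Difference between the strains in upstream DHS length (left, bp) and upstream footprint number (right), G170D minus WT, for 6002 genes as histograms with a log y axis. Red lines mark the members whose value differed. SLT2, RHO1 and MID2 lie at -326, -315 and -276 bp and ROM1 at 500 bp, and SLT2 lies at -12 footprints and ROM1 at 10.

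A further 44 genes of the pathway were read in the same upstream windows, in 7 lists. A DHS was found in both strains at 3 (all genes: 24.6%) and in neither at 36 (63.4%). It was found in G170D only at 2 (4.98%) and in WT only at 3 (7.05%). The means were 31.6 bp in G170D and 52.2 bp in WT, with a median difference of 0 bp. Over all genes the means were higher, with 89.6 bp in G170D and 98.5 bp in WT. Among 5 further sensors and surface inputs, WSC3, a relative of WSC1, held 193 bp and 4 footprints in G170D against 500 bp and 10 footprints in WT, and WSC2, WSC4, MTL1 and ZEO1 held none. Among 4 inputs to Rho1, TOR2, which encodes a kinase of growth and actin control, held 489 bp in G170D and 485 bp in WT. The Rho1 exchange factor gene TUS1 held none. Among 4 genes of GTPase-activating proteins, BAG7 held 293 bp in G170D and 352 bp in WT.

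The 5 genes for phosphatases and other regulators of Slt2, PTP2, PTP3, MSG5, SDP1 and KDX1, had no upstream DHS in either strain. Of 3 transcription factor genes, SWI4, which encodes a transcription factor that Slt2 acts on, held 320 bp and 3 footprints in G170D and 0 bp in WT, and RLM1 and SWI6 held none. Among 16 cell wall genes known as targets, 3 had an upstream DHS, in WT only: HSP150, which encodes a wall mannoprotein, with 461 bp and 8 footprints, CRH1, which encodes a chitin transglycosylase, with 297 bp and 2, and PST1, a wall protein gene, with 204 bp and 2. In G170D these 3 held 0 bp. For comparison, 7.05% of all genes had an upstream DHS in WT only. Most genes of the pathway thus had no listed upstream DHS in either strain. Of the 44 further genes 36 had none, a larger share than the 63.4% of all genes.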

How the data were processed

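DNase I hypersensitivity was sequenced in 1 library of G170D and 1 of WT. Per the submitters' processing notes, reads were checked with FastQC and aligned with Bowtie 0.12.8 to sacCer3. Footprints carry the name of the program dnase2tf. How DHS were called, and at which threshold, the sources used here do not state. For each library the authors deposited DHS regions and footprint regions with a score of unstated formula. The lists carry no read counts, so depth and its precision are unknown. Region starts were read as counted from 0 and are printed counted from 1. Genes came from the RefSeq R64 table, the same assembly as sacCer3, strand from the systematic name. Coding lengths of all 10 members were multiples of 3, so untranslated parts are not included.

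DHS length counted the bp of a window covered, a DHS needed at least 1 bp, and footprints were assigned by midpoint. Windows of neighbouring genes can overlap, so totals over all genes count some bp and some footprints more than once. Overlap meant at least 1 bp. Python 3.11.15, numpy 2.4.6, pandas 2.3.3, scipy 1.17.1 (exact Clopper-Pearson intervals, also for ratios of counts) and matplotlib 3.10.9 were used, and interval counting was tested on simulated data. Alternatives were windows of 300 and 1000 bp, a minimum of 50 bp of DHS, lists of equal number, the stronger 50% of footprints, and footprints counted by any overlap. All members were named. Of the other pathway genes, up to 3 per list with the largest upstream difference were named, and others with DHS in one strain. This was not done for 1 of the 7 lists, whose upstream values enter the totals and are not reported singly here. The members and lists were chosen with earlier results of these data known. Promoter sequence motifs were not analysed here.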

Additional observations from a re-analysis of the deposited data

How the results depend on the processing

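Of 28 recomputed values, 23 stayed within 1.5 times the value above and did not pass to the other side. Ratios, G170D to WT, of footprints changed side at 4. In coding regions the ratio was 1.03 (main 0.741) with lists of the same number of footprints. In downstream windows it was 1.15 with lists of the same number, 1.05 with windows of 300 bp and 1.36 with the stronger 50% of each list (main 0.738). Upstream, 1 of the 23, it was 1.00 with lists of the same number, with no direction left (main 0.667). The cause was not tested, except that shortening the WT list lowers WT counts by construction. The members with an upstream DHS in WT only numbered 2 with windows of 300 bp, SLT2 beside RHO1, and 1 otherwise. The ratio of upstream DHS length ran from 0.637 (300 bp) to 0.822 (1000 bp), and lists of the same number of DHS left all values of the members as they were. The planned count of motifs was not run, since no sequence was used. No paired analysis was possible because each strain had 1 library. Read depth is unknown, so a DHS listed in one strain only may lie below the threshold in the other.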

Other observations

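Outside the upstream windows, some further genes of the pathway differed between the lists, and these were chosen after their values were seen. BNI1, which encodes a formin that nucleates actin cables downstream of Rho1, held 611 bp of DHS and 9 footprints in its coding region in G170D and 0 bp and 0 footprints in WT. WSC2, a relative of WSC1, held 0 bp in its downstream window in G170D, against 500 bp and 9 footprints in WT. TOR2 held 1202 bp and 12 footprints in its coding region in G170D and 1790 bp and 31 footprints in WT. These values come from 1 library per strain and were not tested.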
